A study of Danio rerio with 5 samples.

Results

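The zebrafish dorsal organizer, or shield, was followed through 5 genes expressed in it: chrd (ENSDARG00000006110), frzb (ENSDARG00000018383), gsc (ENSDARG00000059073), foxa2 (ENSDARG00000003411) and sebox (ENSDARG00000042526). They were taken by identifier (chrd and foxa2) or by gene name (the other 3) from 26158 genes in the tables, and all 5 were among the 14097 genes with a mean of at least 1 CPM over the libraries, CPM being the count scaled to library size. At 6 h after fertilization, when the shield is present, poly(A)+ RNA of whole embryos was sequenced as 1 library of 15 pooled embryos in each of 5 groups. The groups were wild type of the mixed strain TU/AB/TL/TLF without treatment, MZdicer (hu896/hu896) without treatment, and MZdicer (hu896/hu896) given a miR-430 duplex, a miR-430 Ago2 hairpin, or that hairpin with 3 phosphorothioate bonds (the 3xPS hairpin). Injected embryos received 1 nl of a 25 µM stock at the 1-cell stage, and all embryos were kept at 28 °C. All 4 MZdicer groups lack maternal and zygotic Dicer function, and no group had a mock injection. Strain and injection therefore cannot be told apart from genotype and miR-430, respectively.

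The organizer forms on the dorsal margin of the gastrula, where maternal β-catenin and Nodal signals meet, and it patterns the embryo by secreting proteins that block BMP and Wnt ligands and by making the axial mesendoderm. chrd encodes Chordin, a secreted BMP antagonist. frzb encodes a secreted Frizzled-related protein that binds Wnt ligands. gsc encodes a homeodomain repressor of the prechordal plate, and foxa2 a forkhead factor of axial mesendoderm, floor plate and endoderm. sebox, listed in RefSeq with the synonym og9x, encodes a paired-type homeodomain factor that is a known early target of Nodal signals in the mesendoderm of the margin and is not restricted to the organizer. miR-430 is made in large amounts by the early zygotic genome and lowers many maternal messages as well as messages of the Nodal ligand squint (ndr1) and the Nodal antagonist lefty2 (lft2) in zebrafish.

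Total gene counts ran from 14867084 in MZdicer to 26300080 in wild type. With 1 library per group no difference has a replicate check, no p-value is given, and every bracketed 95% interval reflects the counting error alone. Levels between libraries are in CPM scaled by TMM (trimmed mean of M values). Calling a gene higher or lower took a ratio of (CPM + 0.5) of at least 2-fold together with an exact conditional binomial interval of its 2 counts that leaves out equality. Folds of single genes are ratios of CPM without the added 0.5. In whole embryos, fewer cells of a type and less RNA per cell cannot be told apart.

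The main pattern was a split of the 5 genes. chrd, frzb, gsc and foxa2 were lower in MZdicer than in wild type and higher in each of the 3 injected libraries than in MZdicer, each with an interval that excluded equality. All these comparisons share the MZdicer library, so a low value there gives both the fall and the 3 rises. sebox was above wild type in MZdicer, lower with the duplex than in any other library, and highest with the hairpin. The gap was at least 2-fold for some members only, as follows.

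**Figure D1:**
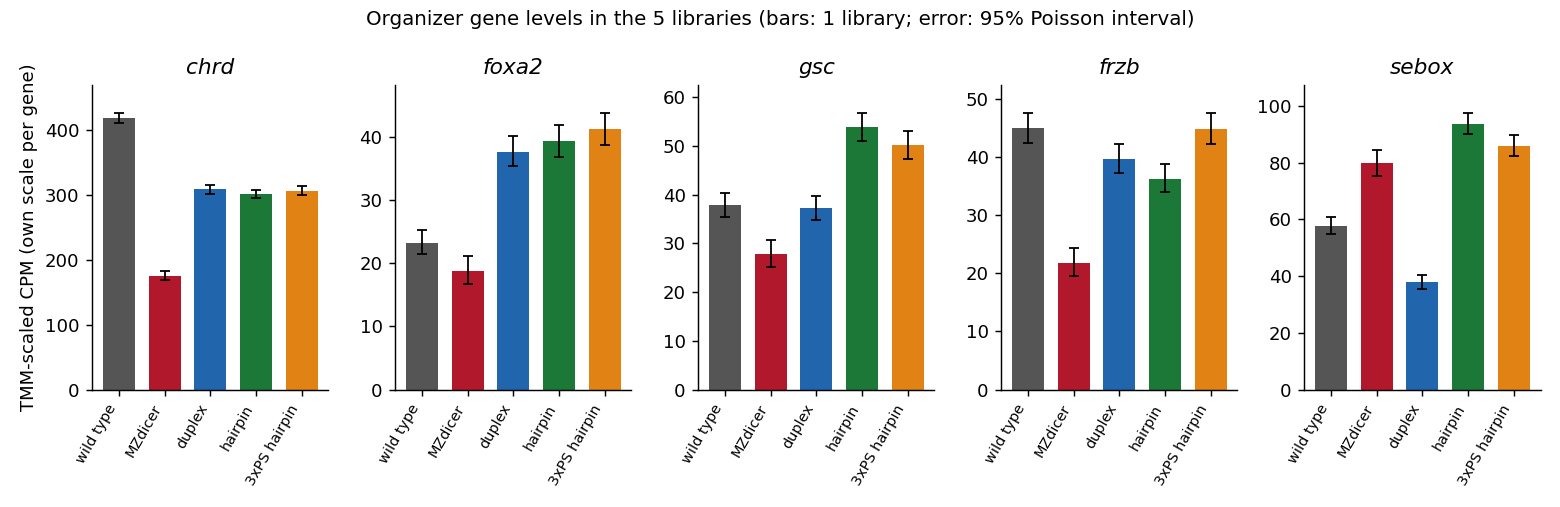
Level of each organizer gene (TMM-scaled CPM, each panel with its own axis from 0) in the 5 libraries; each bar is 1 library and the error bar is the 95% Poisson interval of its count. The MZdicer bar is the lowest for chrd, foxa2, gsc and frzb, and the duplex bar is the lowest for sebox.

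Per length, chrd was the most abundant member in every library. In the authors' RPKM, which divides by gene length and library size, chrd was at 117.5 in wild type and 51.3 in MZdicer, above 94.8% and 88.1% of the measured genes. The other 4 members lay between 12.3 and 22.5 RPKM in wild type, with sebox the lowest and gsc the highest of them. In MZdicer the order below chrd was sebox at 17.7 RPKM, gsc at 17.2, foxa2 at 10.7 and frzb at 7.32 RPKM. chrd made up 65.5% of the summed RPKM of the 5 genes in wild type and 49.2% in MZdicer, while sebox made up 6.86% (wild type), 17.0% (MZdicer), 5.37% (duplex), 11.8% (hairpin) and 10.7% (3xPS hairpin).

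Among the secreted antagonists, chrd stood at 418 CPM (wild type, 10631 counts), 175 CPM (MZdicer, 2624 counts), 308 CPM (duplex, 7809 counts), 301 CPM (hairpin, 7413 counts) and 306 CPM (3xPS hairpin, 7574 counts). Wild type stood highest, MZdicer lowest, and the 3 injected libraries lay together between them. chrd was 2.38-fold lower in MZdicer than in wild type [2.28, 2.49], a called fall. Against MZdicer it was 1.76-fold higher with the duplex [1.68, 1.84], 1.71-fold higher with the hairpin [1.64, 1.79] and 1.74-fold higher with the 3xPS hairpin [1.67, 1.82], below the 2-fold threshold each time. All 3 injected libraries remained below wild type, by 1.36-fold [1.32, 1.40] for the duplex, 1.39-fold [1.35, 1.43] for the hairpin and 1.37-fold [1.33, 1.41] for the 3xPS hairpin. The injected libraries did not differ from one another in chrd beyond counting error: the hairpin to duplex ratio was 0.976 [0.945, 1.01], the 3xPS hairpin to duplex ratio 0.992 [0.961, 1.02] and the 3xPS hairpin to hairpin ratio 1.02 [0.984, 1.05].

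frzb was at 45.0 CPM (wild type, 1144 counts), 21.8 CPM (MZdicer, 326 counts), 39.7 CPM (duplex), 36.3 CPM (hairpin) and 44.9 CPM (3xPS hairpin). MZdicer again stood alone at the bottom, and wild type and the 3xPS hairpin were level. The difference between MZdicer and wild type was 2.06-fold [1.82, 2.34] and was called lower. With total-count scaling, and with the authors' RPKM, its log2 ratio of -1.03 became -0.97 and -0.98, which is no longer called. frzb was called higher with the 3xPS hairpin than in MZdicer, at 2.06-fold [1.82, 2.34], and was 1.82-fold higher with the duplex [1.60, 2.07] and 1.67-fold higher with the hairpin [1.47, 1.90]. The 3xPS hairpin to wild type ratio was 0.998 [0.919, 1.09]. The 3xPS hairpin library exceeded the hairpin library 1.24-fold [1.13, 1.35], the largest ratio of any member between those 2 libraries.

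gsc, the first of the transcription factor genes, was at 37.8 CPM (wild type, 962 counts), 27.8 CPM (MZdicer, 416 counts), 37.2 CPM (duplex, 943 counts), 53.9 CPM (hairpin, 1328 counts) and 50.2 CPM (3xPS hairpin, 1243 counts). The 2 hairpin libraries were thus higher than wild type, the duplex library was level with it, and MZdicer was lowest. The MZdicer library was 1.36-fold below wild type [1.21, 1.53]. The ratio to MZdicer was 1.34 for the duplex [1.19, 1.51], 1.94 for the hairpin [1.73, 2.17] and 1.80 for the 3xPS hairpin [1.61, 2.02], none of them called. gsc exceeded its wild-type level 1.42-fold with the hairpin [1.31, 1.55] and 1.33-fold with the 3xPS hairpin [1.22, 1.44], and its duplex to wild type ratio was 0.984 [0.898, 1.08]. In the RefSeq annotation of the assembly GRCz12tu, a long noncoding gene overlaps gsc. Since the use of strand in the counting is not given in the sources used here, reads of the 2 genes might be mixed in its counts.

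foxa2 was at 23.2 CPM (wild type, 591 counts), 18.8 CPM (MZdicer, 281 counts), 37.6 CPM (duplex, 953 counts), 39.2 CPM (hairpin, 967 counts) and 41.2 CPM (3xPS hairpin, 1020 counts). Both uninjected libraries were low and all 3 injected libraries high, with none in between. The MZdicer to wild type difference was 1.24-fold lower [1.07, 1.43], the smallest of the 5 genes. foxa2 was called higher than in MZdicer with the hairpin, at 2.09-fold [1.83, 2.39], and with the 3xPS hairpin, at 2.19-fold [1.92, 2.51]. With the duplex it was 2.002-fold higher in CPM [1.75, 2.29], with a log2 ratio of 0.98 on the (CPM + 0.5) scale, just short of the threshold; upper-quartile scaling moved this to 1.07, which is called. It also exceeded wild type in each injected library, by 1.62-fold [1.46, 1.80] for the duplex, 1.69-fold [1.52, 1.87] for the hairpin and 1.77-fold [1.60, 1.96] for the 3xPS hairpin.

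sebox was at 57.7 CPM (wild type, 1467 counts), 79.8 CPM (MZdicer, 1194 counts), 37.8 CPM (duplex, 957 counts), 93.7 CPM (hairpin, 2309 counts) and 85.9 CPM (3xPS hairpin, 2127 counts). The 5 values separated into a low duplex value, an intermediate wild-type value and 3 higher values, and every neighbouring pair in this order differed beyond counting error, the closest being the 3xPS hairpin and MZdicer at 1.08-fold [1.001, 1.16]. The MZdicer level exceeded the wild-type one 1.38-fold [1.28, 1.49]. It was called lower with the duplex than in MZdicer, at 2.11-fold [1.94, 2.30], and lay 1.53-fold below wild type there [1.41, 1.66]. Upper-quartile scaling moved the log2 ratio of the duplex to MZdicer from -1.07 to -0.98, which is not called. With the hairpin it was 1.17-fold above MZdicer [1.09, 1.26] and 1.62-fold above wild type [1.52, 1.74].

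**Figure D2:**
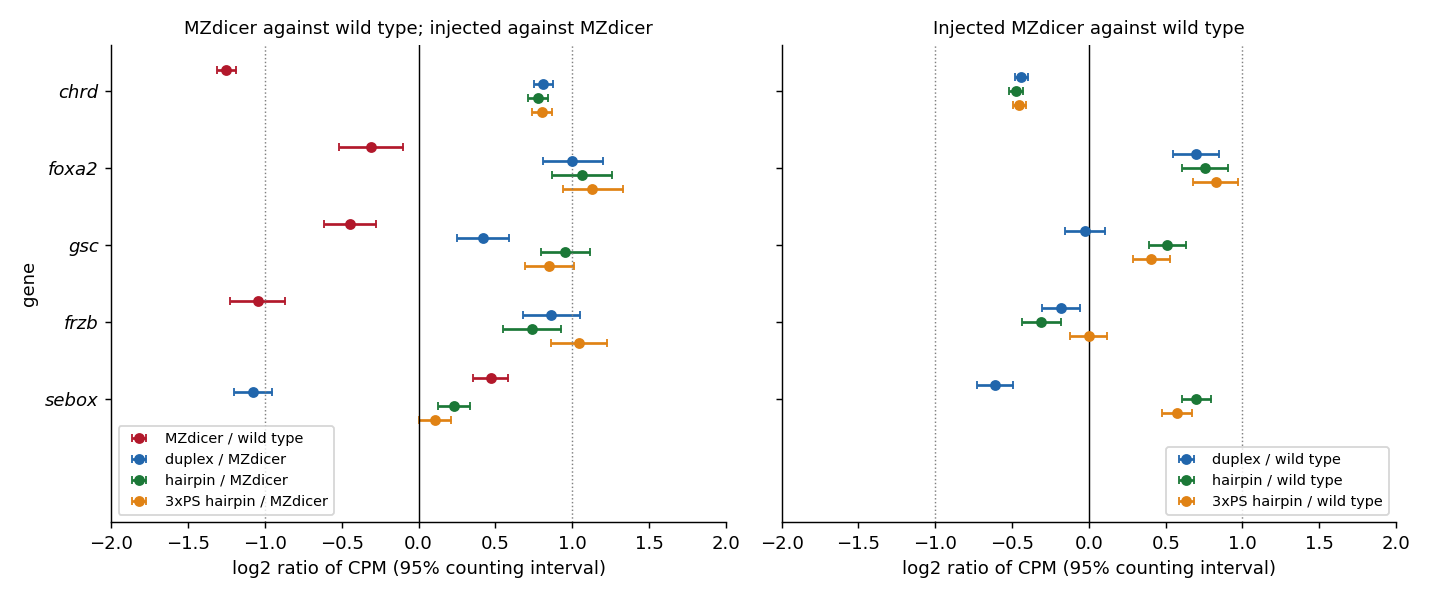
log2 ratio of CPM for each organizer gene with its 95% exact binomial counting interval, left for MZdicer against wild type and each injected library against MZdicer, right for each injected library against wild type; dotted lines mark 2-fold. chrd, foxa2, gsc and frzb sit below 0 for MZdicer against wild type and above 0 for all 3 injections, whereas sebox sits at 0.47 for MZdicer against wild type and at -1.07 for the duplex against MZdicer on the (CPM + 0.5) scale.

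Counted together, 2 of the 5 genes, chrd and frzb, were called lower in MZdicer than in wild type and 0 higher, where 5.81% of all measured genes were called lower and 16.3% higher. The median log2 ratio of the 5 was -0.44, beside 0.02 over all measured genes. With upper-quartile scaling the median of all genes moved to -0.17 and the share of higher genes among all calls from 73.8% to 57.9%, while the same 2 organizer genes were called.

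Against MZdicer, the duplex gave 0 of 5 called higher and 1 called lower, which was sebox, where 1.5% and 6.0% of all genes were called higher and lower. The hairpin gave 1 called higher (foxa2) beside 0.489% of all genes, and the 3xPS hairpin gave 2 (foxa2 and frzb) beside 0.454% of all genes. None was called lower with either hairpin, beside 1.99% and 1.09% of all genes. The median log2 ratios of the 5 genes were 0.81, 0.78 and 0.84 for the duplex, the hairpin and the 3xPS hairpin, beside 0.01, -0.01 and -0.01 over all genes. These 3 comparisons share the MZdicer library, so a low value in that library raises all 3 ratios at once. Among all measured genes, the hairpin to MZdicer ratio of foxa2 exceeded that of 99.6%, of gsc 99.4%, of chrd 98.7%, of frzb 98.4% and of sebox 80.6%. Corresponding figures with the 3xPS hairpin were 99.7% for foxa2, 99.6% for frzb, 99.1% for gsc, 98.9% for chrd and 69.5% for sebox. With the duplex they were lower for each gene, at 98.4% for foxa2, 97.5% for frzb, 97.2% for chrd, 88.1% for gsc and 5.38% for sebox. The members were chosen with earlier results of these data known, so these ranks may partly follow from the choice.

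No organizer gene was called in any injected library against wild type, where the share of all genes called in either direction was 11.7% for the duplex, 18.8% for the hairpin and 20.1% for the 3xPS hairpin. The uncalled differences still had an order, with chrd below wild type, foxa2 above it and sebox on either side of it depending on the molecule.

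The 3 molecules were injected at 1 dose and read at 1 time, and are set beside one another in 3 pairs for each of the 5 genes. Each molecule has 1 library of pooled embryos, so in every pair the molecule and the embryo pool cannot be told apart. The duplex is made of separate strands, the hairpin is a single strand folded on itself that Ago2 cuts in place of Dicer, and the 3xPS hairpin carries phosphorothioate bonds in addition. sebox was the only member called between molecules. It was 2.48-fold higher with the hairpin than with the duplex [2.30, 2.68], beside 2.24% of all genes called higher, and the 3xPS hairpin library exceeded the duplex library 2.27-fold [2.11, 2.46], beside 3.35% of all genes. gsc had the next largest ratios, 1.45 for the hairpin to the duplex [1.33, 1.58] and 1.35 for the 3xPS hairpin to the duplex [1.24, 1.47].

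The pair whose molecules differ by the phosphorothioate bonds, with 1 library of pooled embryos each, gave 0 called members, beside 0.646% of all genes. Its ratios of 3xPS hairpin to hairpin were 1.05 for foxa2 [0.960, 1.15], 0.931 for gsc [0.861, 1.01], 1.24 for frzb [1.13, 1.35] and 0.916 for sebox [0.863, 0.972]. The intervals for frzb and sebox excluded equality, in opposite directions. The bonds and the embryo pool cannot be told apart as the source. For foxa2, the hairpin to duplex ratio was 1.04 [0.953, 1.14] and the 3xPS hairpin to duplex ratio 1.09 [1.001, 1.20].

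The members' profiles over the 5 libraries were compared by the root mean square difference of log2(CPM + 0.5) after centring each gene on its mean. Within the 5 genes chrd and frzb were most alike (0.145), followed by foxa2 and gsc (0.244), and sebox was farthest from the rest, at 0.474 from gsc and 0.719 from chrd. The gap between chrd and foxa2, at 0.468, was nearly as wide as that between sebox and gsc. Of 11192 other measured genes with a symbol, the one most like sebox was mixl1 (ENSDARG00000069252), a Mix-type homeobox gene of the mesendoderm, at 0.127. mixl1 was at 38.0 CPM (wild type), 49.4 CPM (MZdicer), 25.5 CPM (duplex), 52.3 CPM (hairpin) and 46.5 CPM (3xPS hairpin). It was picked for its likeness over these same libraries, so the order of its values, lowest with the duplex and highest with the hairpin, follows from the choice. Its hairpin level was 2.05-fold its duplex level [1.87, 2.26]. PTGES3, encoding a co-chaperone of Hsp90, and si:ch211-226h8.4 followed, both at 0.131.

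The nearest genes to chrd were FMNL2 (0.0789), tpmt.1 (0.085) and stap2a (0.0942). Those nearest to frzb were POU4F2 (0.0649), tgfbr2l (0.0936) and slc6a22.1 (0.0962). Those nearest to gsc were ACOT11 (0.0489), INTS12 (0.0636) and PIGN (0.102), and those nearest to foxa2 were KCNH4 (0.0765), COL6A2 (0.0844) and STX3 (0.0935). Most of these genes were scarce, between 0.401 CPM and 6.21 CPM in any library, stap2a being the exception at 29.8 CPM to 66.4 CPM. A small difference at such levels rests on few reads.

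Other organizer genes gave a mixed picture in MZdicer. Of 13 measured, from 39 listed symbols, 2 were called lower than in wild type and 0 higher, with a median log2 ratio of -0.25. The listed noga, hhex, shha and shhb, among others, were not matched by symbol, so the counts leave them out. Over all measured genes 5.81% were called lower and 16.3% higher, with a median of 0.02. OTX2 (ENSDARG00000011235), a homeobox gene of the anterior neural plate and prechordal mesendoderm, was at 6.96 CPM (wild type), 0.736 CPM (MZdicer), 6.20 CPM (duplex), 2.07 CPM (hairpin) and 1.49 CPM (3xPS hairpin). The duplex library alone was near wild type for this gene, and its MZdicer value, below 1 CPM, rests on few reads. FLRT3, a transmembrane protein of Fgf signalling and cell adhesion, was at 238 CPM (wild type) and 103 CPM (MZdicer), and had 171 CPM (duplex), 137 CPM (hairpin) and 134 CPM (3xPS hairpin) after injection. Below the threshold, FOXD3 was 1.89-fold lower in MZdicer [1.69, 2.12], the BMP-like organizer ligand admp 1.79-fold lower [1.57, 2.04] and otx2a 1.75-fold lower [1.61, 1.90].

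With the hairpin and the 3xPS hairpin, all 13 other organizer genes had ratios to MZdicer above 1, and 9 of 13 with the duplex, beside 48.6%, 48.6% and 50.8% of all measured genes. The rise was not particular to organizer genes. Among 7 yolk syncytial layer genes 7, 7 and 6 had such ratios in the same order, and among 7 epiblast genes 2, 2 and 5. Of the 13 organizer genes OTX2 alone was called, higher with the duplex and with the hairpin, beside 1.5% and 0.489% of all genes. Both calls rest on its scarce MZdicer value. The forkhead gene foxa3, a relative of foxa2, was 1.60-fold higher with the 3xPS hairpin than in MZdicer [1.54, 1.66], at 414 CPM against 259 CPM and 216 CPM in wild type. FST, which encodes follistatin, was at most 1.70 CPM in any library.

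**Figure D3:**
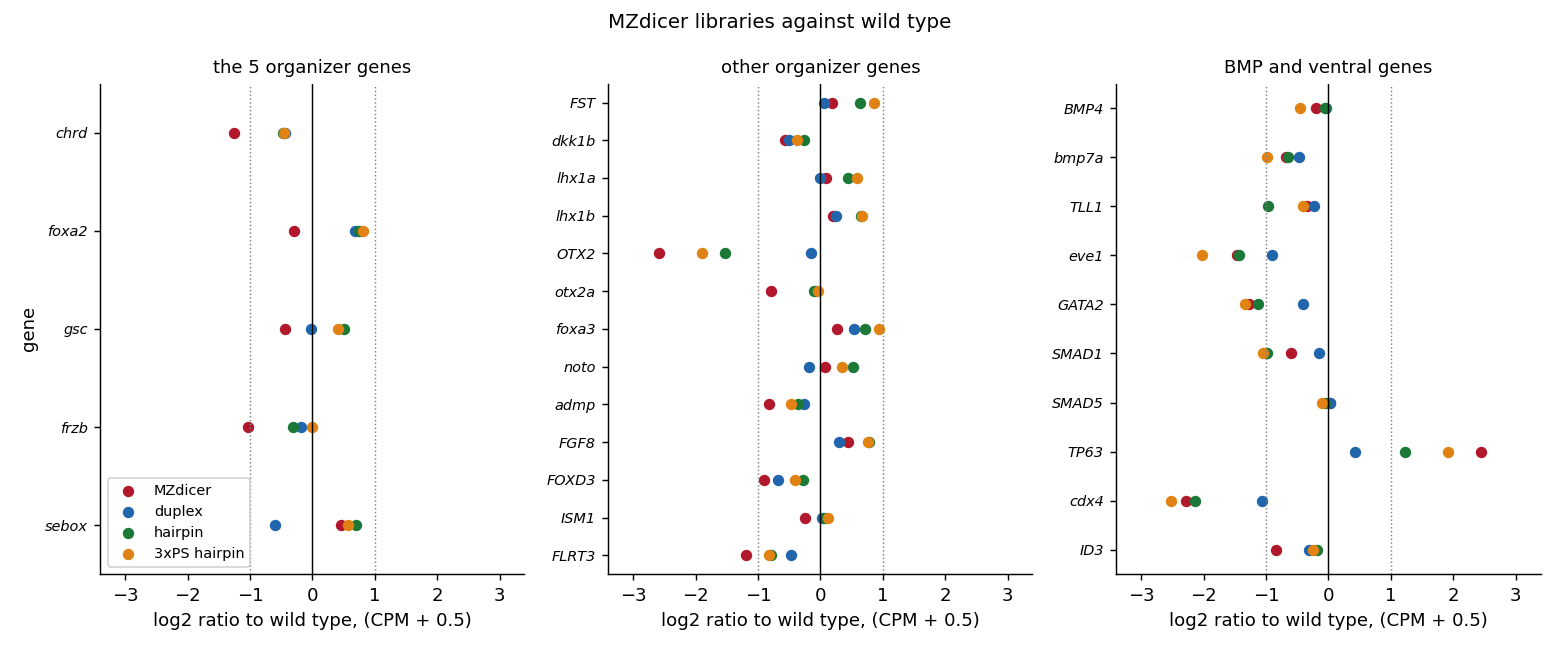
log2 ratio of (CPM + 0.5) to wild type in MZdicer and in each injected MZdicer library, 1 point per library, for the 5 organizer genes, the 13 other organizer genes and the 10 BMP and ventral genes; dotted lines mark 2-fold. foxa2 and foxa3 have their injected points right of 0, while cdx4, eve1 and GATA2 have all 4 points left of 0.

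The Nodal pathway induces gsc, sebox and mixl1. Of its 14 measured genes, 4 were called above wild type in MZdicer and 0 below: ndr1, lft2, SMAD2, the transducer, and mxtx2, a homeobox gene of the yolk syncytial layer. The listed Nodal genes ndr2, sox32, sox17 and tbxta, among others, were not matched by symbol, so the counts leave them out. Over all measured genes 16.3% were called higher and 5.81% lower. ndr1 was at 2.40 CPM (wild type), 32.8 CPM (MZdicer), 5.29 CPM (duplex), 20.7 CPM (hairpin) and 18.1 CPM (3xPS hairpin). SMAD2 was at 33.3 CPM, 132 CPM, 28.0 CPM, 89.2 CPM and 104.5 CPM in the same order. ndr1, SMAD2, lft2 and sebox all had a duplex value below both hairpin values and below MZdicer. The hairpin values of sebox were above its MZdicer value, whereas those of ndr1, SMAD2 and lft2 were below theirs. These Nodal genes were picked for a high MZdicer value, which favours injected values below it. Their contrast with sebox may therefore partly follow from the choice. mxtx2, at 2.75 CPM (wild type), 14.5 CPM (MZdicer), 9.95 CPM (duplex), 19.9 CPM (hairpin) and 20.3 CPM (3xPS hairpin), shared with sebox a duplex value below MZdicer and hairpin values above it. The Nodal co-receptor gene tdgf1 had 213 CPM (wild type), 231 CPM (MZdicer), 198 CPM (duplex), 297 CPM (hairpin) and 275 CPM (3xPS hairpin), the same order of libraries as sebox. tdgf1 was picked once its values had been seen, so the shared order follows from the choice.

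**Figure D4:**
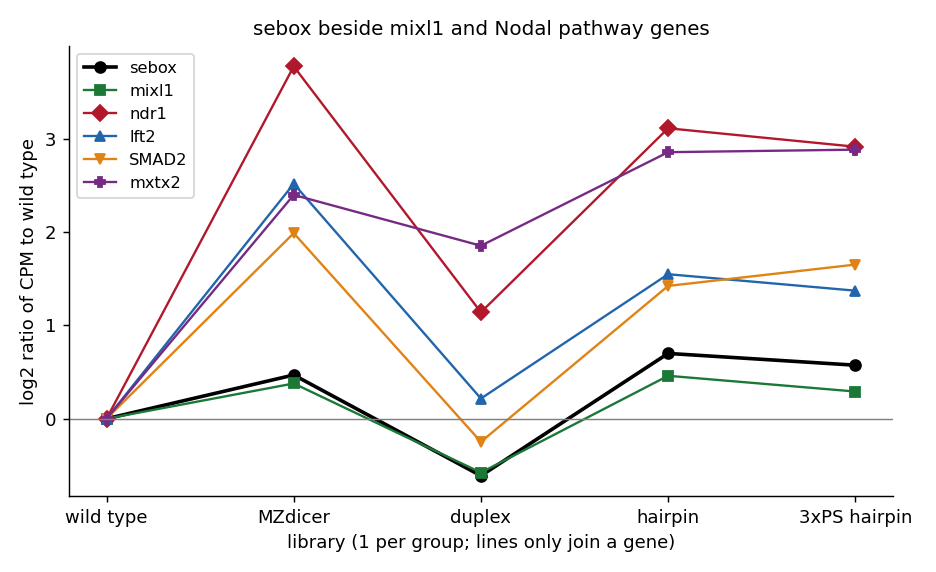
log2 ratio of CPM to wild type for sebox, for mixl1, whose profile was most like it, and for the 4 Nodal list genes called higher in MZdicer (ndr1, lft2, SMAD2, mxtx2), 1 point per library; lines only join the points of a gene. sebox and mixl1 lie below 0 with the duplex, at 37.8 CPM and 25.5 CPM, and above 0 in the other 3 MZdicer libraries.

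The Wnt genes, which act upstream of the organizer or are opposed by frzb, had 1 of 10 called lower in MZdicer than in wild type and 0 higher, beside 5.81% and 16.3% of all measured genes. The listed axin1, axin2, wnt5b and lrp6, among others, were not matched by symbol, so the counts leave them out. The Wnt gene called lower was WNT8A (ENSDARG00000052910, which shares this symbol with another gene), a ventrolateral Wnt ligand, at 42.3 CPM (wild type), 14.8 CPM (MZdicer), 35.6 CPM (duplex), 19.4 CPM (hairpin) and 18.5 CPM (3xPS hairpin). The other WNT8A (ENSDARG00000078507) was at 96.6 CPM (wild type), 55.3 CPM (MZdicer), 78.5 CPM (duplex), 60.3 CPM (hairpin) and 49.9 CPM (3xPS hairpin) and was not called in either comparison, at 1.75-fold lower in MZdicer than in wild type [1.61, 1.89] and 1.42-fold higher with the duplex than in MZdicer [1.31, 1.54]. Between the duplex and MZdicer, the first WNT8A was called higher, at 2.40-fold [2.07, 2.79], and dvl2, an intracellular Wnt transducer, lower, at 2.20-fold [2.10, 2.31]. In that comparison 1.5% of all measured genes were called higher and 6.0% lower. The gene ctnnb2, encoding the β-catenin of the maternal dorsal signal, was at 917 CPM in wild type and at 532 CPM to 714 CPM in the 4 MZdicer libraries.

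The measured genes of the ventral side, which chrd opposes, differed from one another in MZdicer. Among the listed genes, bmp2b, szl, vox, vent and ved were not matched by symbol, so the counts and sums leave them out. Of 10 BMP and ventral genes 3 were called lower than in wild type, cdx4, eve1 and GATA2, 1 was called higher, TP63, and 6 were not called. Over all measured genes 5.81% were called lower and 16.3% higher. The summed level of the 10 ventral genes was 1325 CPM (wild type), 792 CPM (MZdicer), 994 CPM (duplex), 819 CPM (hairpin) and 722 CPM (3xPS hairpin). SMAD5 alone held 262 CPM to 287 CPM of it in every library. The summed level of the 5 organizer genes was 582 CPM (wild type), 324 CPM (MZdicer), 460.5 CPM (duplex), 524 CPM (hairpin) and 528 CPM (3xPS hairpin), and without sebox that of the other 4 was 524 CPM, 244 CPM, 423 CPM, 430.3 CPM and 442 CPM in the same order. Both sums were lowest or close to lowest in MZdicer, but the 3xPS hairpin library had the lowest ventral sum together with the highest organizer sum of the 4 MZdicer libraries. In that library 9 of 10 ventral genes had ratios to MZdicer below 1, with a median log2 ratio of -0.25, while all 5 organizer genes had ratios above 1. Over all measured genes 48.6% had ratios above 1, with a median log2 ratio of -0.01. None of the 10 ventral genes was called there, 0 higher and 0 lower, beside 0.454% and 1.09% of all genes. With the hairpin, whose organizer sum was close to that of the 3xPS hairpin, 6 of 10 ventral genes had ratios to MZdicer above 1, with a median log2 ratio of 0.03. Over all measured genes 48.6% had hairpin to MZdicer ratios above 1. Against wild type eve1 was 4.09-fold lower with the 3xPS hairpin [3.84, 4.36] and 2.73-fold lower with the hairpin [2.59, 2.88].

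Markers of other cell types and stages were counted between MZdicer and wild type in the same way, beside 16.3% of all measured genes called higher and 5.81% lower. Of 10 mesoderm genes in a segmentation list 7 were called lower and 0 higher. They were already expressed at 6 h, at 3.70 CPM to 143 CPM in wild type. Their summed level was 593 CPM (wild type), 285 CPM (MZdicer) and 316 CPM to 373 CPM in the injected libraries. Of 11 enveloping layer genes 4 were lower and 0 higher, with sums of 13197 CPM (wild type), 8677 CPM (MZdicer) and 8167 CPM to 10256 CPM after injection. Maternal and oocyte genes, 12 in number, had 7 called higher and 0 lower, with sums of 1090.3 CPM (wild type), 2278 CPM (MZdicer), 1165 CPM (duplex), 1689 CPM (hairpin) and 1807 CPM (3xPS hairpin). Of 7 epiblast genes 2 were higher (nanog and sox19b) and 2 lower (SOX2 and sox19a), and 5 had ratios below 1. Their sums were 4978 CPM in wild type and 3817 CPM to 4086 CPM in the MZdicer libraries. Of these sums pou5f3 alone held 3277 CPM in wild type and 2394 CPM to 2767 CPM in the MZdicer libraries. Of 7 yolk syncytial layer genes 1 was higher (mxtx2, also in the Nodal list) and 1 lower (apoa1a), with sums of 3807 CPM (wild type), 3475 CPM (MZdicer) and 3935 CPM to 4880.0 CPM after injection. Most of each sum was apoeb alone, at 3370 CPM (wild type), 3131 CPM (MZdicer) and 3480 CPM to 4396 CPM after injection. Against MZdicer, the segmentation list had 4 (duplex), 3 (hairpin) and 2 (3xPS hairpin) called higher and 0 lower. Over all measured genes 1.5%, 0.489% and 0.454% were called higher. MYF5, called each time, had 4 counts in MZdicer. The enveloping layer, epiblast, yolk syncytial layer and maternal lists had 0 called higher. Maternal genes had 5, 1 and 1 called lower and epiblast genes 2, 0 and 0, beside 6.0%, 1.99% and 1.09% of all genes. No measured marker of these lists was at 0 in any library. The part of stage or cell composition in the organizer values was not tested.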

How the data were processed

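Strand-specific poly(A)+ libraries of 15 pooled embryos were made with TruSeq reagents, per the labels' protocols. The submitters' processing notes name CASAVA 1.8.2, TopHat2 2.0.8 and the build Zv9 (danRer7); how reads were assigned to genes, and against which annotation, is not given in the sources used here. The authors deposited whole-number read counts per gene without normalization, which gave the main values. A further deposited column of estimated counts, fractional in 3838 to 4207 genes (tolerance 1e-06) and rounded here, and the authors' RPKM, served as alternatives; RPKM also gave levels per length. For the 5 members the estimated counts equalled the counts in 19 of 25 values.

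TMM factors (0.967 to 1.02) came from edgeR 4.0.16 in R 4.3.3, and intervals from scipy 1.17.1. A gene was measured at a mean of at least 1 CPM. The calling was checked on simulated counts with planted changes and counting error alone. That check held no variation between embryo pools, so it says nothing on this source of error. DESeq2 1.42.0 gave alternative size factors. Symbols, some in capitals as in the name table, matched 18804 of 26158 identifiers. Listed, matched and measured numbers were 39, 20 and 13 for other organizer genes (1 further gene is not reported here), 23, 14 and 14 for Nodal, 22, 11 and 10 for Wnt, 22, 10 and 10 for BMP and ventral, 14, 11 and 11 for the outer (enveloping) epithelium, 11, 8 and 7 for yolk syncytial layer, 9, 7 and 7 for epiblast, 14, 12 and 10 for segmentation, and 16, 12 and 12 for maternal genes. The members and lists were chosen with earlier results of these data known. Named genes are the 5 members, the called or at least 1.5-fold other organizer genes, up to 4 of the largest ratios of each other list, and the 3 most like profiles per member. tdgf1, mixl1 beyond its profile and ctnnb2 were picked once their values had been seen. SMAD5, apoeb and pou5f3 were named for their share of a sum.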

Additional observations from a re-analysis of the deposited data

How the results depend on the processing

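The number of organizer genes called depended most on the fold threshold. At 1.5-fold, 4 of 5 were called for the duplex, 4 for the hairpin and 4 for the 3xPS form against MZdicer, and 2, 2 and 1 for the same libraries against wild type, where 2-fold gave 1, 1 and 2 and then 0, 0 and 0. The duplex set was chrd, foxa2 and frzb higher and sebox lower, and both hairpin sets were chrd, foxa2, gsc and frzb higher. Of all 14097 measured genes, 1.5-fold called 871 higher and 1782 lower (duplex), 421 and 985 (hairpin), and 420 and 607 (3xPS hairpin) against MZdicer. Against wild type it called 2759 and 1536, 3490 and 2145, and 3702 and 2254 in the same order. Total-count scaling and the authors' RPKM each left 1 gene, chrd, called in MZdicer against wild type, since frzb fell short. Under upper-quartile factors the duplex against MZdicer kept a count of 1, with foxa2 called in place of sebox. No called ratio of a member changed sign under the 10 alternatives. The largest move was 0.201 on the log2 scale, under upper-quartile factors, and 17 of 50 member ratios left their counting interval there. The ratios that changed sign were all near equality: gsc with the duplex and frzb with the 3xPS hairpin against wild type, and foxa2 with the hairpin against the duplex. The filters on low counts and pseudocounts of 0.1 and 1 changed no member call.

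Counts over all genes moved more. Across the alternatives, genes higher and lower in MZdicer than in wild type ranged from 1553 to 3806 and from 435 to 2337, around 2301 and 819. Against MZdicer they ranged from 113 to 871 and 601 to 1782 around 212 and 846 for the duplex, 27 to 421 and 173 to 985 around 69 and 280 for the hairpin, and 19 to 420 and 95 to 607 around 64 and 153 for the 3xPS hairpin. Under upper-quartile factors, the share of higher genes among the calls against wild type went from 69.7% to 54.9% for the hairpin and from 73.1% to 57.5% for the 3xPS hairpin. No paired analysis was possible because each group holds 1 library. The scarcest member value rests on 281 counts, whereas genes near or below 1 CPM rest on few reads.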

Other observations

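The genes beside the 5 organizer genes were looked up in the RefSeq annotation of GRCz12tu, a later assembly than the one the tables use, after the members' values had been seen. Of 20 neighbouring protein-coding genes, 12 were matched by symbol and 11 of these were measured, of which 2 were called in MZdicer against wild type, beside 22.1% of all measured genes.

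gsc is separated from DICER1 (ENSDARG00000001129), the gene mutated in MZdicer, by no other protein-coding gene in that annotation. DICER1 was at 36.5 CPM (wild type), 22.7 CPM (MZdicer), 22.5 CPM (duplex), 20.1 CPM (hairpin) and 23.0 CPM (3xPS hairpin). It was below wild type by 1.61-fold in MZdicer [1.42, 1.83], 1.62-fold with the duplex [1.46, 1.80], 1.82-fold with the hairpin [1.63, 2.03] and 1.58-fold with the 3xPS hairpin [1.42, 1.76]. None of these differences was called. gsc was 1.36-fold below wild type in MZdicer [1.21, 1.53], also not called. Whether the nearness of the 2 genes bears on gsc was not tested.

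Next to sebox lies EBF2 (ENSDARG00000042525), a transcription factor gene that did not reach a mean of 1 CPM. EBF2 had 112 counts in wild type, 0 counts in MZdicer and 1 count in each injected library. Its wild-type level of 4.41 CPM is at least 22.0-fold the floor of 3 counts in the MZdicer library, 0.201 CPM. The counts of the 4 MZdicer libraries all lie below 3, so a lowering of EBF2 after injection could not have been seen. A strain difference and the loss of Dicer cannot be told apart as the source of its gap between wild type and MZdicer.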
